A study of Mus musculus with 9 samples.

Results

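The genes described here make fatty acids, glycerolipids and cholesterol, and were measured in differentiated cells of the mouse mammary gland and in mammary organoids. They were chosen by name: 25 genes of the fatty acid branch, 16 of the sterol branch and 4 regulators, 45 in all of 18194 genes with a probe set annotated to them alone. All 45 were measured, and no filter on low values was applied, so all 45 were tested. For 33 of them the array carries more than 1 probe set, of which the brightest by its mean of the 9 arrays stands for the gene. Elovl2 was below the lower quartile of the array on all 9 arrays, and with Elovl3 it was 1 of 2 genes with a mean under 4 on the log2 scale, close to the lowest intensities the arrays give (lower quartiles 3.47 to 3.59, medians 5.11 to 5.15).

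Both branches start from acetyl-CoA. In the fatty acid branch, acetyl-CoA carboxylase makes malonyl-CoA, fatty acid synthase builds the saturated chain, elongases and desaturases lengthen and unsaturate it, and acyltransferases store it in glycerolipids. In the sterol branch the mevalonate pathway yields isoprenoid units, which are joined to squalene, closed to a ring and trimmed to cholesterol. The transcription factors encoded by Srebf1 and Srebf2 are held in the membrane of the endoplasmic reticulum by the products of Insig1 and Insig2 while sterols are plentiful, and when released they turn on genes of both branches, Srebf1 chiefly those of fatty acids and Srebf2 chiefly those of sterols. The mammary gland is known for a large output of milk fat in lactation.

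The study asked whether YAP, a transcriptional coactivator of the Hippo pathway, turns differentiated cells into stem-like cells, and used Affymetrix arrays to set the resulting organoids beside others. The first group were luminal differentiated (LD) cells sorted as EpCAM-high, CD49f-low and CD61-negative from glands of virgin C57BL/6J mice, with RNA taken from freshly purified cells. The second group were organoids grown from mammary stem cells (MaSCs), here called MaSC organoids. The third were yMaSC organoids, grown from yMaSCs. These are LD cells that had received lentiviral vectors for doxycycline-inducible wild-type YAP and for its activator rtTA. The cells were treated with doxycycline to turn on YAP before organoid culture, and the organoids were kept without doxycycline. Each group holds 3 arrays, lettered A, B and C and labelled biological replicas. Both kinds of organoid grew in Matrigel with EGF, bFGF, heparin, noggin and R-Spondin1, and the LD cells were not cultured, so a difference between LD cells and organoids cannot be told apart from one between fresh and cultured cells. RNA came from whole populations, in which fewer cells of a type and less RNA per cell cannot be told apart. All values are log2 intensities normalized by the authors, and differences are given in log2 units.

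LD sample B stood apart from LD samples A and C. Csn2, which encodes β-casein, was at 12.98, 3.44 and 12.97 in LD samples A, B and C, and Fabp4, a fatty acid binding protein of adipocytes and endothelium, at 4.20, 10.92 and 3.70. The mean of 9 milk and alveolar genes was 6.66 in LD B against 11.4 and 11.5. Of these 9, Csn2 and Glycam1 were called lower in both kinds of organoid, and Csn3 and Elf5 higher. Csn3 did not set LD B apart, at 13.60, 13.70 and 13.80 in LD samples A, B and C. The mean of 5 genes of dividing cells was 5.33 in LD B against 7.97 and 7.48, and that of 4 endothelial genes 5.95 against 3.86 and 3.99. The mean of 6 fibroblast genes was 7.93 against 6.58 and 6.18, and 5.11 to 5.51 in organoids, where 3 of the 6 were called lower and 1, Pdgfra, higher, by 2.53 and 2.10 log2. The luminal genes Krt8, Krt18, Krt19, Esr1 and Pgr were high in all 3 LD samples, with list means of 12.7 to 12.8, against 10.97 to 11.79 in organoids, where all 5 were called lower. Markers of immune cells were higher in LD cells than in organoids, at list means of 6.80 to 7.44 against 4.11 to 4.59, and all 5 of them were called lower in both kinds of organoid. Among 7 adipocyte markers measured, Adipoq, Cidec and Lep were at 2.57 to 3.62 on every array, and 1 of the 7, the lipase gene Lipe, was called lower in organoids. The list's mean was 4.23, 5.28 and 4.27 in LD cells and 3.77 to 3.90 in organoids. The list includes Fabp4, the only member that was far higher in LD B than in the other LD samples. Lipe was lowest in LD B, at 7.84, 7.37 and 7.89 in LD samples A, B and C. What part these differences in the makeup of the samples have in the values below was not tested. For lipid genes called against LD cells, it is stated where leaving out LD B ends the call or moves the difference by over 1.5 times. Genes without a call are not covered by this, and their differences can depend on LD B too.

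Against LD cells, organoids showed higher mRNA for Acaca and Fasn, the core of fatty acid synthesis, and for 4 of 5 desaturases, and a mixed picture for sterol synthesis. In MaSC organoids 21 of the 45 genes were called higher and 6 lower at a Benjamini-Hochberg adjusted p under 0.05 in limma, beside 22.1% higher and 15.2% lower of all genes tested. In yMaSC organoids 20 were higher and 7 lower, beside 21.6% and 14.3% of all genes. In the fatty acid branch 13 of 25 were higher and 4 lower in each kind of organoid, with a median difference of 0.75 log2 in MaSC organoids and 0.74 in yMaSC organoids. In the sterol branch 6 of 16 were higher and 1 lower in MaSC organoids, and 5 were higher and 2 lower in yMaSC organoids, with medians of 0.20 and 0.25. The median over all genes was -0.02 and -0.01. Both comparisons use the same LD arrays, so the second is not a repeat of the first.

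**Figure D1:**
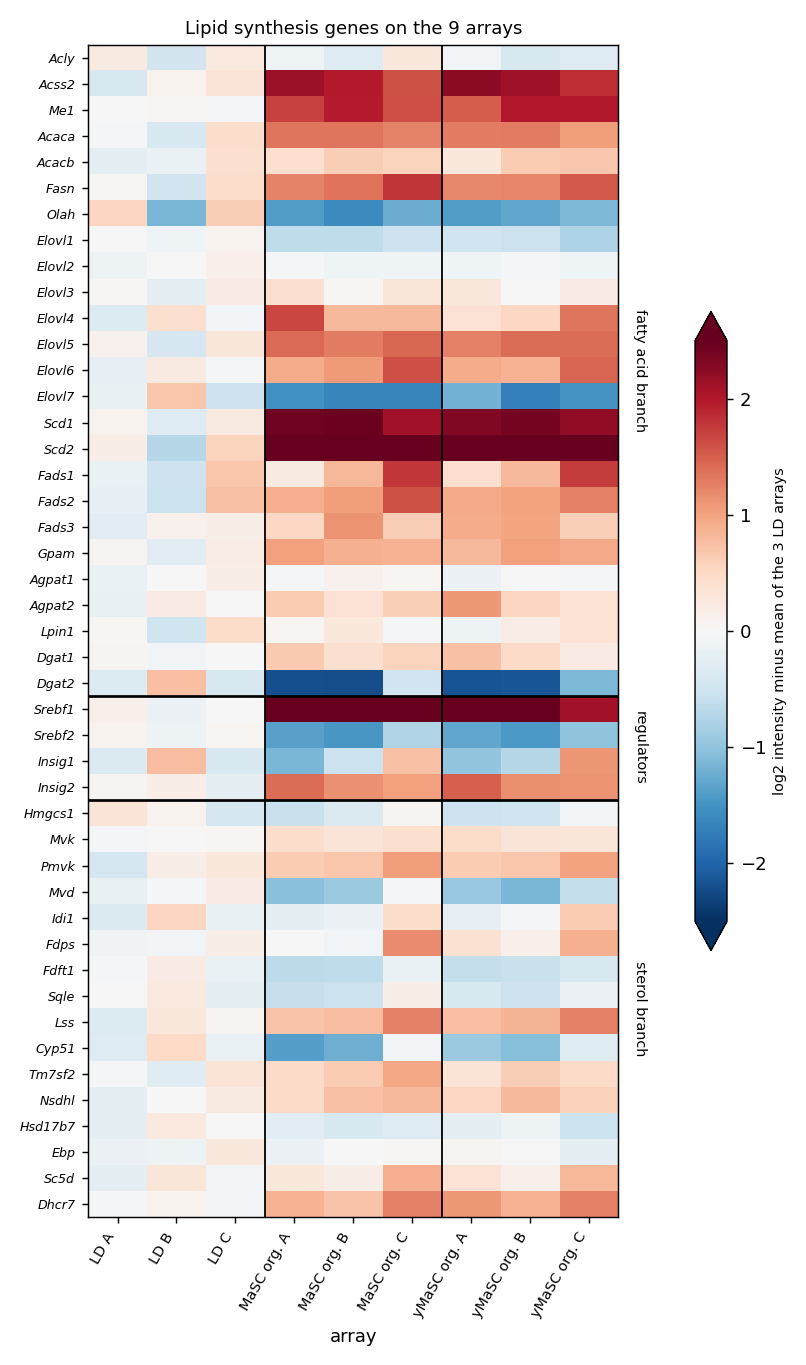
Log2 intensity of each gene on each array minus the mean of the 3 LD arrays, as colour (red above, blue below, capped at 2.5 in both directions), with genes in rows by branch and arrays in columns. Scd1, Scd2, Srebf1, Acss2 and Me1 are red on all 6 organoid arrays, Dgat2, Olah, Elovl7 and Srebf2 are blue, and most sterol genes are redder on the 2 organoid arrays of letter C than on those of A and B.

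The stearoyl-CoA desaturases, which place the first double bond in saturated acyl chains, had the largest increases of the fatty acid branch. Scd2 was at 8.91, 8.02 and 9.29 in LD samples A, B and C, at 12.91, 12.71 and 12.83 in MaSC organoids, and at 12.71, 12.72 and 12.76 in yMaSC organoids. Scd1 was at 11.77, 11.36 and 11.90 in LD cells, at 14.10, 14.12 and 13.78 in MaSC organoids, and at 13.99, 14.07 and 13.89 in yMaSC organoids. For both genes every organoid array lay above every LD array, with a gap wider than the spread within any group. Scd2 rose by 4.08 ± 0.27 log2 (SE, n = 3 and 3, adjusted p = 1.41e-05 in limma, 16.9-fold) and by 3.99 ± 0.27 (adjusted p = 1.72e-05), and Scd1 by 2.32 ± 0.16 (adjusted p = 1.60e-05) and by 2.31 ± 0.16 (adjusted p = 1.82e-05, 4.95-fold). The other probe sets of these genes moved the same way, by 4.37 and 2.58 log2 for Scd2 and by 2.91 for Scd1 in MaSC organoids.

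Differences were smaller for the Fads genes, whose products include the desaturases of polyunsaturated fatty acids. Fads2, the Δ6 desaturase, was at 8.42, 8.09 and 9.36 in LD cells, at 9.54, 9.66 and 10.22 in MaSC organoids, and at 9.57, 9.63 and 9.88 in yMaSC organoids. The groups did not overlap, but LD C lay close to the lowest organoids. Fads2 rose by 1.18 ± 0.31 log2 (adjusted p = 0.0162) and by 1.07 ± 0.31 (adjusted p = 0.0262). Without LD B the differences were 0.92 (adjusted p = 0.0473) and 0.80 (adjusted p = 0.0761), and the first call was lost without LD A or MaSC organoid C (highest adjusted p over all alternatives 0.063), the second without LD A or any 1 organoid from yMaSCs (highest 0.0812). The second call was also lost with cyclic loess (0.88, adjusted p = 0.0512). Fads3 rose by 0.75 and 0.84 log2, and its probe sets agreed in direction, but the first call was lost under each of the 3 other scalings described below (adjusted p up to 0.0714). Fads1, the Δ5 desaturase, differed by 0.94 ± 0.48 (adjusted p = 0.162) and 0.99 ± 0.48 (adjusted p = 0.146), which did not pass, and it is described with the letters below.

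Of the 3 genes that supply precursors, 2 were higher in organoids. Acss2, which makes acetyl-CoA from acetate, was at 5.56, 6.04 and 6.28 in LD cells, at 8.10, 7.95 and 7.55 in MaSC organoids, and at 8.19, 8.08 and 7.80 in yMaSC organoids. Me1, the malic enzyme that yields NADPH, was at 10.44, 10.45 and 10.38 in LD cells, at 12.13, 12.39 and 12.03 in MaSC organoids, and at 11.94, 12.42 and 12.42 in yMaSC organoids. Neither gene's organoid arrays came near its LD arrays. Acss2 rose by 1.91 ± 0.21 and 2.06 ± 0.21 log2 (adjusted p = 0.000184 and 0.000133), and Me1 by 1.76 ± 0.15 and 1.84 ± 0.15 (adjusted p = 5.28e-05 and 4.54e-05). By contrast Acly, which makes acetyl-CoA from citrate, had differences of -0.05 and -0.26 log2 with 95% intervals of -0.56 to 0.45 and -0.77 to 0.25.

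Acaca, the acetyl-CoA carboxylase of the committed step, was at 7.60, 7.26 and 8.09 in LD cells, at 8.98, 8.99 and 8.89 in MaSC organoids, and at 8.93, 8.94 and 8.69 in yMaSC organoids. Fasn, fatty acid synthase, was at 8.51, 8.01 and 8.92 in LD cells, at 9.72, 9.83 and 10.26 in MaSC organoids, and at 9.69, 9.70 and 10.02 in yMaSC organoids. In both genes LD C was the highest LD sample and LD B the lowest, and all organoid arrays were higher still. Acaca rose by 1.30 ± 0.19 and 1.20 ± 0.19 log2 (adjusted p = 0.000811 and 0.00133) and Fasn by 1.46 ± 0.24 and 1.32 ± 0.24 (adjusted p = 0.00141 and 0.00248). Acacb, the mitochondrial form of the carboxylase, differed by 0.53 log2 in both comparisons (adjusted p = 0.0508 and 0.0537). Its other probe set, near the lower quartile, had -0.22 and -0.28.

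Olah, the thioesterase that ends chain growth early and gives the medium-chain acids of milk, went the other way. It was at 5.75, 4.07 and 5.82 in LD cells, at 3.82, 3.62 and 3.97 in MaSC organoids, and at 3.81, 3.91 and 4.09 in yMaSC organoids. LD B, which also had little Csn2 mRNA, was at the level of the organoids, and the organoid values were not far above the arrays' lower quartile. Olah fell by 1.41 ± 0.41 log2 (adjusted p = 0.0241) and by 1.28 ± 0.41 (adjusted p = 0.0374). Without LD B the differences were -1.98 (adjusted p = 4.40e-05) and -1.85 (adjusted p = 6.32e-05), whereas without LD A or without LD C they did not pass, the smallest being -1.11 and -0.97. Without organoid A or B from MaSCs neither passed, and without any 1 organoid from yMaSCs the second did not. With the compared groups alone neither passed (adjusted p = 0.055 and 0.0777), nor did the second with quantile normalization (adjusted p = 0.0536). Over all alternatives the highest adjusted p was 0.082 and 0.122, each on leaving out an LD sample.

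The elongases split by member. Elovl5, which lengthens polyunsaturated chains, was at 10.20, 9.67 and 10.39 in LD cells, at 11.51, 11.37 and 11.53 in MaSC organoids, and at 11.35, 11.49 and 11.48 in yMaSC organoids. Elovl6, which lengthens saturated chains made by fatty acid synthase, was at 7.30, 7.74 and 7.49 in LD cells, at 8.44, 8.58 and 9.13 in MaSC organoids, and at 8.44, 8.38 and 8.96 in yMaSC organoids. Both were higher on every organoid array, Elovl5 by 1.38 ± 0.17 and 1.35 ± 0.17 log2 (adjusted p = 0.000338 and 0.000411) and Elovl6 by 1.21 ± 0.22 and 1.08 ± 0.22 (adjusted p = 0.00279 and 0.00511). Another Elovl6 probe set, near the lower quartile, showed 0.06 and -0.04.

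Elovl4, of very long chains, was at 3.12, 3.85 and 3.39 in LD cells, at 5.13, 4.26 and 4.26 in MaSC organoids, and at 3.81, 3.97 and 4.79 in yMaSC organoids. The LD values were close to the lower quartile, and organoid A from yMaSCs lay within the LD range. The gene was called in MaSC organoids (1.10 ± 0.33, adjusted p = 0.0287, up to 0.0967 without LD A, LD C or organoid A, 0.0519 with the replicate letter as a block and 0.0593 with a common median) and not in yMaSC organoids (0.74 ± 0.33, adjusted p = 0.118), and the difference between the 2 kinds of organoid did not pass either (-0.36, 95% interval -1.11 to 0.39). Elovl7 was at 9.78, 10.66 and 9.45 in LD cells, at 8.45, 8.31 and 8.32 in MaSC organoids, and at 8.78, 8.26 and 8.49 in yMaSC organoids. Here all LD arrays were above all organoid arrays, LD B highest, and the gene fell by 1.60 ± 0.28 and 1.45 ± 0.28 log2 (adjusted p = 0.00203 and 0.00355). Its 6 probe sets were all lower in organoids, but by as little as 0.08 and 0.26 log2, and the mean over them did not pass. Elovl1 fell by 0.60 log2 in both comparisons, with 1 of its 4 probe sets at -0.09 and -0.16, and Elovl2 and Elovl3, at or near the lower quartile, had no call.

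Of the glycerolipid genes, Gpam, the first acyltransferase of glycerolipid synthesis, rose by 0.93 log2 in both comparisons. The 2 acyltransferases of the last step to triglyceride moved apart. Dgat2 was at 8.90, 9.98 and 8.83 in LD cells, at 7.03, 7.02 and 8.76 in MaSC organoids, and at 7.07, 7.10 and 8.11 in yMaSC organoids. Organoid C from MaSCs came close to LD A and LD C, and LD B lay above the rest. Dgat2 fell by 1.63 ± 0.53 log2 (adjusted p = 0.0386) and by 1.81 ± 0.53 (adjusted p = 0.0262). Without LD B neither passed, at -1.26 (adjusted p = 0.12) and -1.44 (adjusted p = 0.0827), and the first also failed without LD A, LD C or any 1 of the 4 organoids A and B, the second without organoid A or B from yMaSCs. A second Dgat2 probe set had -1.27 and -1.36. Dgat1 rose by 0.54 and 0.47 log2, but its second probe set showed -0.52 and -0.42, the mean of both at 0.01 and 0.02, and both calls were lost under the 3 other scalings (adjusted p up to 0.125 and 0.24). The first call was also lost without MaSC organoid A (adjusted p = 0.0613), and the second without LD B, LD C or yMaSC organoid A or B (adjusted p up to 0.0953). Agpat2 differed by 0.53 (adjusted p = 0.0561) and rose by 0.66 (adjusted p = 0.0237). The latter call was lost without LD A, LD C or organoid A from yMaSCs (adjusted p up to 0.0766). It was also lost with cyclic loess (adjusted p = 0.0877) and with a common median (adjusted p = 0.112). Agpat1 had 0.04 and -0.06, and Lpin1 0.09 and 0.14.

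**Figure D2:**
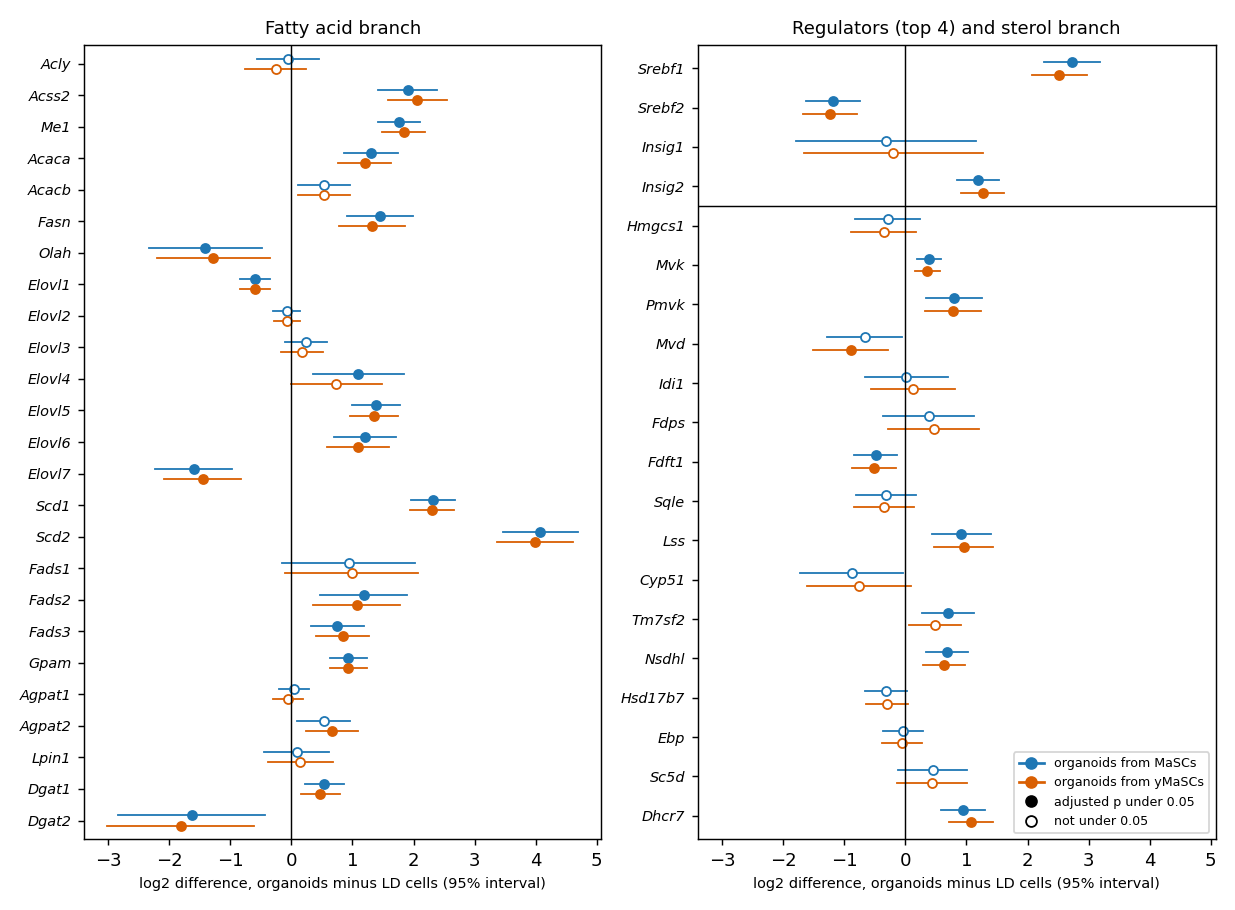
Log2 difference of MaSC organoids (blue) and yMaSC organoids (orange) from LD cells for each gene, with its 95% interval from limma, fatty acid branch on the left, regulators and sterol branch on the right. Filled points passed an adjusted p of 0.05, and the largest difference is that of Scd2 at 4.08 and 3.99.

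The sterol branch had smaller differences, of -0.88 to 0.94 log2 in MaSC organoids and -0.89 to 1.08 in yMaSC organoids. Dhcr7, the reductase of the last step to cholesterol in one route, was at 6.42, 6.54 and 6.38 in LD cells, at 7.31, 7.15 and 7.70 in MaSC organoids, and at 7.54, 7.32 and 7.71 in yMaSC organoids. It was the sterol gene with the largest increase on the fitted scale, 0.94 ± 0.16 (adjusted p = 0.00177) and 1.08 ± 0.16 (adjusted p = 0.000907), and every organoid array lay above every LD array. Lss, which closes the sterol ring, rose by 0.91 and 0.95 log2, with another probe set at 2.10 and 2.05. Nsdhl, which removes methyl groups from the ring, rose by 0.68 and 0.63 log2. Tm7sf2, a sterol reductase, rose by 0.70 in MaSC organoids and differed by 0.48 in yMaSC organoids (adjusted p = 0.0777), the first call being lost without MaSC organoid C (adjusted p up to 0.0961 over all alternatives).

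In the mevalonate steps the kinases Mvk and Pmvk rose by 0.39 and 0.79 log2 in MaSC organoids and by 0.36 and 0.77 in yMaSC organoids. Mvd, the decarboxylase that follows them, was lower by 0.89 ± 0.27 log2 in yMaSC organoids (adjusted p = 0.03) and had -0.67 in MaSC organoids (adjusted p = 0.0853). The other Mvd probe set had -0.21 in both comparisons, and the mean of all its probe sets did not pass in yMaSC organoids (-0.55, adjusted p = 0.13). Fdft1, squalene synthase, fell by 0.49 (adjusted p = 0.0376) and 0.52 (adjusted p = 0.0304), with another probe set at -0.41 and -0.54, while its 2 dimmest had 0.11 and 0.13 in MaSC organoids and 0.10 and -0.03 in yMaSC organoids. Without LD B neither gene passed in either comparison, with adjusted p of 0.0625 for Mvd in yMaSC organoids and of 0.106 and 0.0867 for Fdft1. No sterol gene was then called lower. Fdft1 also failed without LD A or without organoid A or B of the group compared, in MaSC organoids without yMaSC organoid A or B as well, and Mvd without LD C or yMaSC organoid A or B.

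The other 8 sterol genes had no call in either comparison. Hmgcs1, the synthase ahead of mevalonate, differed by -0.29 and -0.36 log2, and its 5 probe sets were between -0.19 and -1.02 in MaSC organoids. Idi1 and Fdps, which make the isoprenoid units, differed by 0.02 and 0.38 log2 in MaSC organoids, with 95% intervals of -0.67 to 0.70 and -0.37 to 1.13. Sqle, the epoxidase of squalene, differed by -0.32 and Cyp51, the lanosterol demethylase, by -0.88 (adjusted p = 0.098). The intervals of Cyp51, -1.73 to -0.03 and -1.61 to 0.09, leave room for a decrease of over 1 log2. Hsd17b7, Ebp and Sc5d differed by -0.32, -0.04 and 0.44 log2, Sc5d with another probe set at 1.47 and 1.39.

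How the arrays were scaled changed the counts of the sterol branch. Setting all arrays to a common median of the gene values moved the median difference of all genes to -0.27 log2 in both comparisons and the share of higher genes among those called down to 30.0% for MaSC organoids, where it had been 59.3%, and down to 28.8% for yMaSC organoids, where it had been 60.1%. With cyclic loess these shares were 49.4% and 49.8%, and with quantile normalization over genes 50.8% and 50.4%. Under these 3 scalings 10 to 12 fatty acid genes were called higher and 4 to 6 lower. The sterol genes called higher were 2 to 5 in MaSC organoids and 2 or 3 in yMaSC organoids, and those called lower 3 to 5 and 3 to 6. The sterol median turned to -0.05 and -0.01 with a common median, and with cyclic loess it was -0.02 and 0.05, so that no net direction can be given for the sterol branch. Mvk, Pmvk, Nsdhl, Lss and Tm7sf2 each lost a call under at least 1 of these scalings, whereas Dhcr7 passed under all 3.

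**Figure D3:**
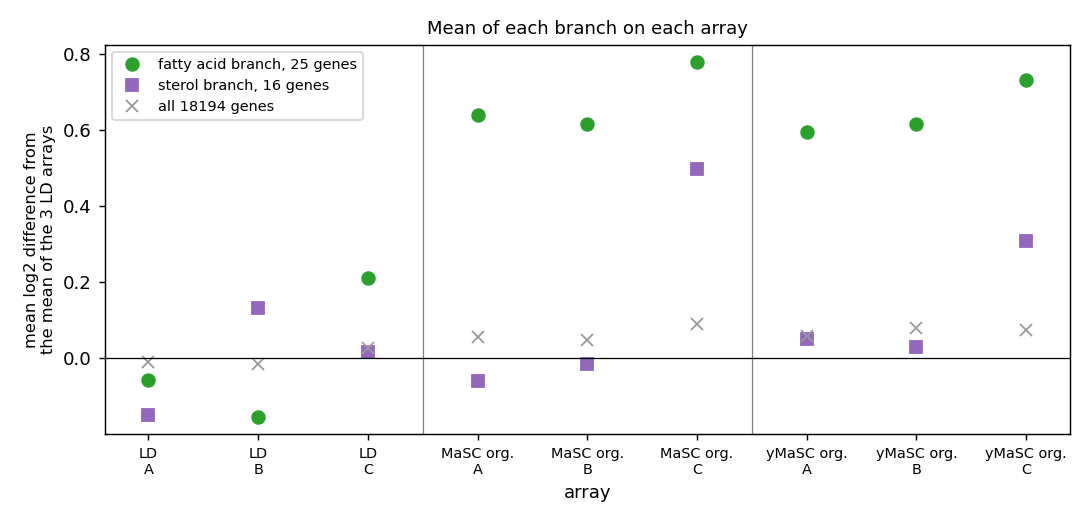
Mean over the genes of each branch of the log2 difference from the LD mean, for each of the 9 arrays, with the mean over all 18194 genes as crosses. Fatty acid means are 0.59 to 0.78 on all 6 organoid arrays, and sterol means are -0.06 to 0.05 in organoids A and B and 0.50 and 0.31 in organoids C.

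The difference between the branches on one array does not depend on a shift of the whole array. Relative to the LD mean, the fatty acid branch mean minus the sterol branch mean was 0.09, -0.28 and 0.20 in LD samples A, B and C. It was 0.70, 0.63 and 0.28 in MaSC organoids and 0.54, 0.58 and 0.42 in yMaSC organoids. All organoid arrays lay above all LD arrays, MaSC organoid C by the smallest margin. With the LD mean taken without LD B the values were -0.05 and 0.05 in LD cells and 0.14 to 0.56 in organoids. LD B itself was the lowest LD sample for 14 of the 25 fatty acid genes and for 1 of the 16 sterol genes, and the highest for 6 and for 8.

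The 4 regulators did not move as a block. Srebf1 was at 10.19, 9.92 and 10.08 in LD cells, at 13.06, 12.76 and 12.55 in MaSC organoids, and at 12.76, 12.83 and 12.16 in yMaSC organoids. Srebf2 was at 9.03, 8.82 and 9.00 in LD cells, at 7.60, 7.50 and 8.20 in MaSC organoids, and at 7.66, 7.52 and 7.95 in yMaSC organoids. The organoid arrays of Srebf1 all lay more than 1 log2 above the LD arrays, and those of Srebf2 all lay below them. Srebf1 rose by 2.73 ± 0.20 and 2.52 ± 0.20 log2 (adjusted p = 2.28e-05 and 3.58e-05, 6.62-fold and 5.74-fold), and Srebf2 fell by 1.18 ± 0.19 and 1.24 ± 0.19 (adjusted p = 0.00147 and 0.00123). The second Srebf2 probe set had -0.36 and -0.47. Srebf1 has 1 probe set here.

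Insig2 was at 8.29, 8.39 and 8.01 in LD cells, at 9.62, 9.38 and 9.26 in MaSC organoids, and at 9.72, 9.40 and 9.36 in yMaSC organoids. It rose by 1.19 ± 0.15 and 1.26 ± 0.15 log2 (adjusted p = 0.000393 and 0.000303), with its 3 probe sets at 0.84 or more, and the groups did not overlap. Insig1 was at 7.55, 8.70 and 7.51 in LD cells, at 6.77, 7.38 and 8.65 in MaSC organoids, and at 6.94, 7.20 and 9.02 in yMaSC organoids. Within each group 1 array stood more than 1 log2 above the others, LD B among the LD cells and letter C among the organoids. The group means of Insig1 differed by -0.32 ± 0.65 and -0.20 ± 0.65 log2 (adjusted p = 0.736 and 0.84).

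**Figure D4:**
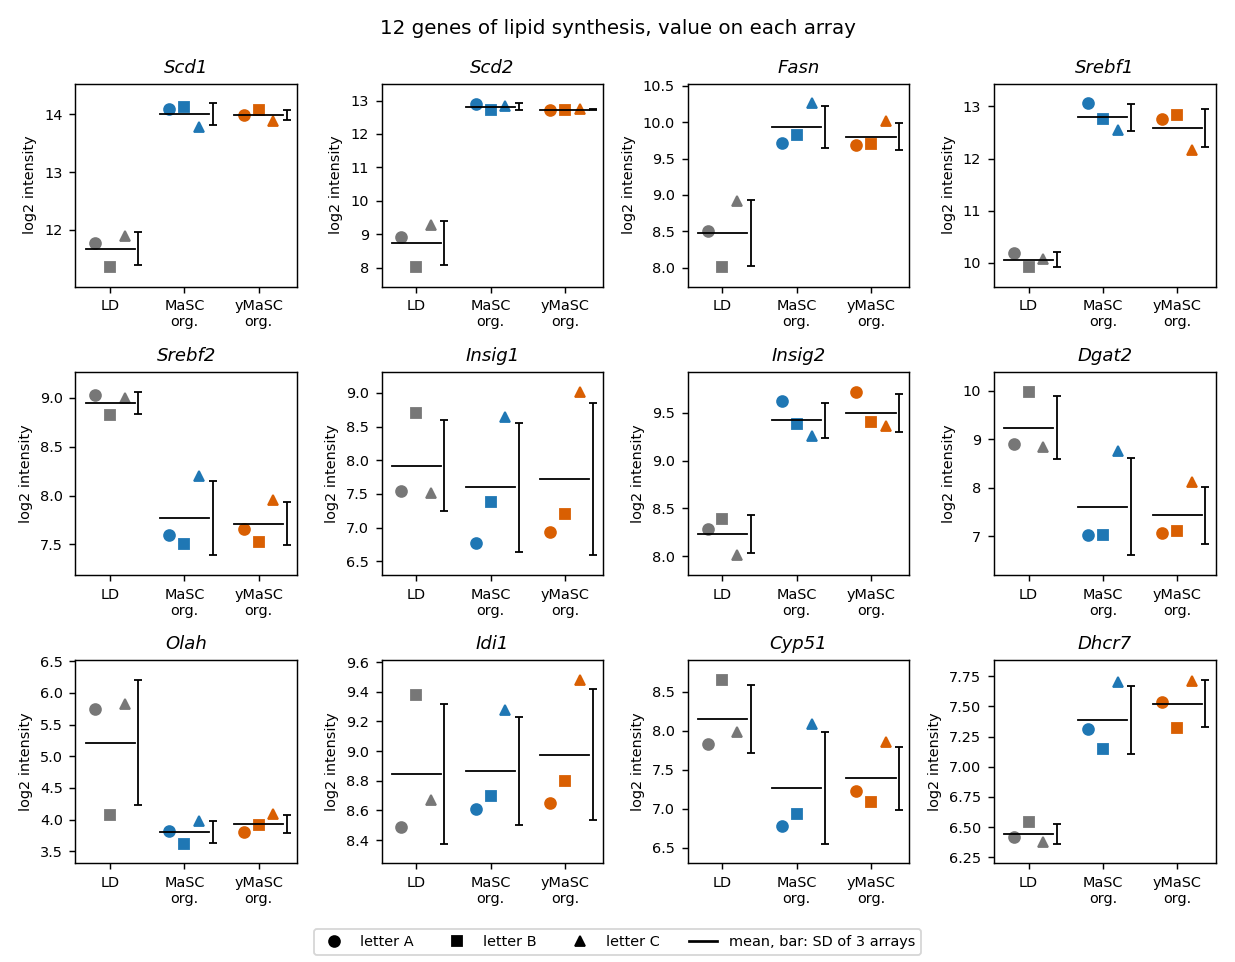
Log2 intensity of 12 genes on each array (circle A, square B, triangle C) in LD cells (grey), MaSC organoids (blue) and yMaSC organoids (orange), with the mean of 3 arrays as a line and the SD as a bar; the vertical axes differ and do not start at 0. Srebf1, Scd1 and Scd2 are far higher in organoids, while Insig1, Idi1, Cyp51 and Dgat2 are, within each kind of organoid, highest on the array of letter C.

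yMaSC organoids were set against MaSC organoids to ask whether reprogrammed cells differ from native stem cells in these genes. None of the 45 genes was called, nor was any of all genes tested (0%), in limma with or without the letter in the model. At an unadjusted p under 0.05 there were 104 genes without the letter, 145 with it as a block in all arrays, 596 when the organoids alone were fitted with that block and 630 with it as a random block, and 0 of the 45 in each case. The differences ran from -0.36 log2 (Elovl4) to 0.16 (Acss2). The letters pair the organoids, as arrays with the same letter deviated together from their group means, and in that fit of the organoids alone, with the letter as a block, the 95% interval lay within 1 log2 for 44 of the 45 genes. The exception was Elovl4 (-1.22 to 0.50). Without the letter this held for 40, the other exceptions being Olah, Fads1, Dgat2 and Insig1. For Scd2 the blocked interval was -0.29 to 0.12, for Fasn -0.34 to 0.07, and for Srebf1 -0.49 to 0.08. For Insig1 it was -0.19 to 0.43.

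Differences between the letters were tested within the organoids. In an F test of the letter with the kind of organoid in the model, 6 of the 45 genes were called, beside 5.52% of all genes tested, and all 6 were highest in letter C, beside 559 of 1004 over all genes called. These are Fads1, Insig1, Idi1, Dgat2, Sc5d and Elovl6. Fads1 was at 9.37, 9.96 and 10.90 in organoids A, B and C from MaSCs and at 9.56, 9.94 and 10.88 in those from yMaSCs, beside 8.97, 8.61 and 9.83 in LD cells. The 2 organoids of a letter agreed within 0.19 log2, and C exceeded A by 1.43 and B by 0.94 log2 (adjusted p = 0.00919 in limma). Insig1, whose values are given above, was 1.98 and 1.55 log2 higher in C than in A and B (adjusted p = 0.00982).

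Idi1, the isomerase that readies the isoprenoid unit, was at 8.61, 8.70 and 9.28 in organoids A, B and C from MaSCs and at 8.65, 8.80 and 9.48 in those from yMaSCs, beside 8.49, 9.38 and 8.67 in LD cells. Sc5d, a desaturase of the sterol ring, was at 9.48, 9.37 and 10.13 and at 9.58, 9.35 and 10.04, beside 8.98, 9.52 and 9.15. In both genes letter C stood above A and B in each kind of organoid, and LD B above LD A and C. C exceeded A and B by 0.75 and 0.63 log2 for Idi1 (adjusted p = 0.0303) and by 0.56 and 0.73 for Sc5d (adjusted p = 0.0369). For Dgat2 the excess was 1.39 and 1.38 (adjusted p = 0.0354) and for Elovl6 0.61 and 0.57 (adjusted p = 0.0481). Sc5d and Elovl6 were not called on the mean of all probe sets or with array weights, nor Elovl6 with a common median. Each call rests on 6 arrays, and none held when any of them was left out, which leaves 1 residual degree of freedom, while C stayed above A for each of the 6 genes.

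Among the sterol genes, 11 of 16 were higher in both organoids C than in the other 4 organoids and 0 were lower, with a median excess of 0.44 log2 over A and 0.44 over B. The 11 are Hmgcs1, Pmvk, Mvd, Idi1, Fdps, Fdft1, Sqle, Lss, Cyp51, Sc5d and Dhcr7. Of all 18194 genes, 3112 (17.1%) were higher in both organoids C and 3244 were lower, with medians of 0.01 and 0.005. In the fatty acid branch 6 of 25 were higher (Fasn, Olah, Elovl6, Fads1, Fads2 and Dgat2) and 3 lower (Acss2, Acaca and Scd1), with medians of 0.06 and 0.02. Cyp51, for example, was at 6.78, 6.94 and 8.09 in organoids A, B and C from MaSCs and at 7.23, 7.09 and 7.85 in those from yMaSCs, without passing (adjusted p = 0.0556). Fdps and Lss were also just outside (adjusted p = 0.0582 and 0.0557). The regulators split in the same arrays: Insig1 and Srebf2 were higher in both organoids C, and Srebf1 and Insig2 lower, at 12.55 and 12.16 against 12.76 to 13.06 for Srebf1.

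**Figure D5:**
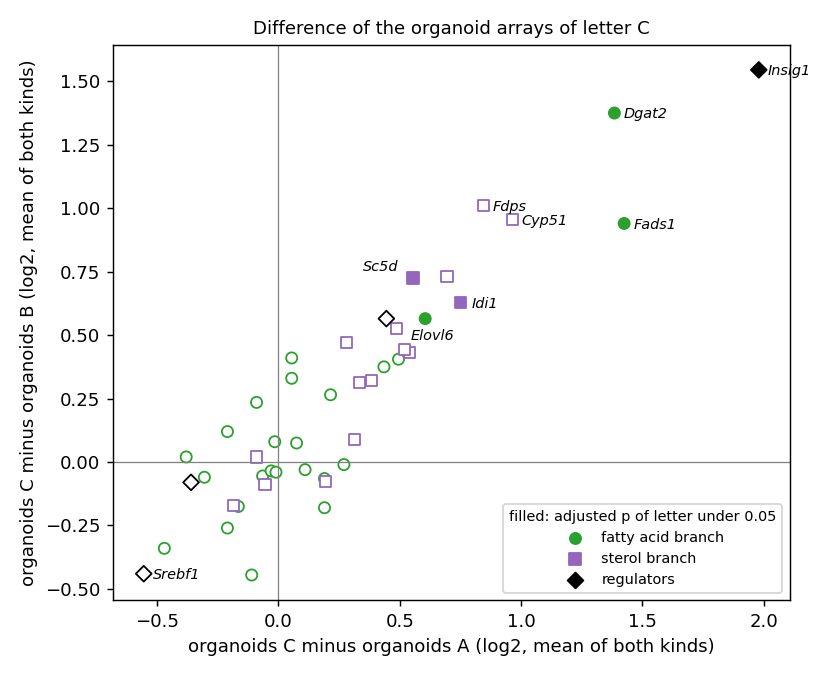
Excess of the organoid arrays of letter C over those of letter A (horizontal axis) and of letter B (vertical axis) in log2, each the mean of both kinds of organoid, for the 45 genes. Filled symbols passed the F test of the letter at an adjusted p of 0.05; most sterol genes (squares) lie to the upper right, while most fatty acid genes (circles) lie nearer 0, Fads1, Dgat2 and Elovl6 farther out.

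Other lists had higher means in letter C too. For 5 genes of dividing cells the mean lay between 4.58 and 5.24 in organoids A and B, against 7.38 and 7.42 in organoids C, and all 5 were called for the letter. The mean of 6 basal genes was 8.12 to 8.39 in A and B and 9.07 and 9.87 in C, beside 5.59 to 5.74 in LD cells. Of the basal genes 2 of 6 were called. The mean of the 9 milk and alveolar genes was 6.92 to 7.004 in A and B and 7.77 and 7.75 in C, with 2 called, the milk protein genes Csn1s1, higher in C than in A by 5.04 log2 (adjusted p = 0.00409), and Lalba, by 2.52 (adjusted p = 0.00859). The 5 luminal genes had a mean of 10.97 to 11.20 in A and B and of 11.79 and 11.57 in C, and 1 was called, the progesterone receptor Pgr, at 1.21 log2 (adjusted p = 0.0425). The part of dividing, basal, milk-producing or luminal cells in the lipid genes of letter C was not tested. Without both organoids C the sterol median against LD cells was -0.05 in MaSC organoids and 0.14 in yMaSC organoids, and the fatty acid median 0.53 and 0.61.

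The stretches before the start sites of 5 genes are shown with any matches to letters that SREBP and its partner factors are known to read. Insig1, Idi1 and Sc5d are 3 of the 4 genes called for the letter that have a window, the other being Elovl6, whose window holds none of the 4 motifs searched. Hmgcs1 is shown because it alone among the 36 genes with a window holds the classical SREBP site, and Fasn as the main synthase of the other branch. Each is the 200 bases before the start on the gene's strand, from RefSeq on GRCm38.p6, at chr5:28071212-28071411 (plus strand) for Insig1, chr13:8885406-8885605 (plus) for Idi1, chr9:42264301-42264500 (minus) for Sc5d, chr13:119690151-119690350 (plus) for Hmgcs1 and chr11:120824548-120824747 (minus) for Fasn. Capitals mark the SREBP site TCACNCCAC, the E-box CACGTG and the CCAAT box, each on either strand, so that CCAAT may read as ATTGG.
Insig1: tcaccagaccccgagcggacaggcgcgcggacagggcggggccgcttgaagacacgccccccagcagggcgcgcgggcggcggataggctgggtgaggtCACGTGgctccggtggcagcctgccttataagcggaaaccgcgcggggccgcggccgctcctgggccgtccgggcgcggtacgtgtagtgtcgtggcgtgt
Idi1: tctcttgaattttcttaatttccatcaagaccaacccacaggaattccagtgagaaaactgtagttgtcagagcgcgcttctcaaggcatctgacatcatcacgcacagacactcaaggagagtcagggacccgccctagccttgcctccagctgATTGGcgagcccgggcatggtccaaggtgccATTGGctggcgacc
Sc5d: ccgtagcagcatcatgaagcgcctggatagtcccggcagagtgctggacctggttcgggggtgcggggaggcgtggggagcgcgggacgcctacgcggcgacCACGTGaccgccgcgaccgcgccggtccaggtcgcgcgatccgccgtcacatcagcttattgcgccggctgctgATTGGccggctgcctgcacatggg
Hmgcs1: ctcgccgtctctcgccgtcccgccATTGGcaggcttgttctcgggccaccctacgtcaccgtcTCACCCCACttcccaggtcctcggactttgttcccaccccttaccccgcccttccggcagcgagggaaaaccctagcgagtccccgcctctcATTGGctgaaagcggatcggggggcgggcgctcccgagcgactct
Fasn: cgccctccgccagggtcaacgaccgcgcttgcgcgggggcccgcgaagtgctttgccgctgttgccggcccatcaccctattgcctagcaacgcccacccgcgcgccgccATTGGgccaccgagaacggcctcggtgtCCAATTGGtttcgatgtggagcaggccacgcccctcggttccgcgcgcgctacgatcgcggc

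Insig1 and Sc5d carry an E-box at nearly the same place, with its first base at -101 and -98 from the start. Within the stretches shown, Sc5d, Idi1, Hmgcs1 and Fasn carry reversed CCAAT boxes. These are at -24 in Sc5d, at -45 and -14 in Idi1, at -176 and -45 in Hmgcs1, and at -90 and -59 in Fasn. The SREBP site of Hmgcs1 begins at -137. The capitals of Fasn at -62 and -59 are 2 CCAAT boxes on opposite strands that overlap. Windows of 250 bases before and 50 after the start were given for 36 of the 45 genes, 13 sterol, 19 fatty acid and 4 regulators. A gene was counted for a motif if any of its windows held it. Of the 36 genes, 9 had more than 1 window, and the 27025 genes had 32851 windows. CCAAT was found in 13 of 13 sterol genes, 11 of 19 fatty acid genes and 4 of 4 regulators, and in 41.1% of 27025 genes with a window. The GC box GGGCGG was found in 12 of 13 sterol and 12 of 19 fatty acid genes and in 38.2% of all. The E-box was in 3 of 13 and 2 of 19, beside 8.09% of all, and the SREBP site in 1 of 13 and 0 of 19, beside 1.44%. These are matches of letters in a short window and are not shown to be bound.

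Of 28 other lipid genes measured, 13 were called higher and 4 lower in each kind of organoid, beside 22.1% higher and 15.2% lower of all genes in MaSC organoids and 21.6% and 14.3% in yMaSC organoids. Without LD B the counts were 14 and 4 in each, with Ppara added. Values are given for the genes that differed by 2 log2 or more. Btn1a1, butyrophilin of the milk fat globule, was at 9.92, 8.56 and 10.49 in LD cells and at 3.55 to 4.72 in organoids, and fell by 5.62 and 5.55 log2. Cd36, a fatty acid transporter also of endothelium and adipocytes, was at 6.48, 8.08 and 3.56 in LD cells and at 2.45 to 2.79 in organoids, with -3.36 and -3.44 (adjusted p = 0.0179 and 0.0167). Without LD B, its highest sample, the differences of Cd36 were -2.34 and -2.42 (adjusted p = 0.0328 and 0.0294), and without LD A or organoid A of the group compared neither passed, nor the second without yMaSC organoid B (adjusted p up to 0.0584). Lpl, the lipase that frees fatty acids from lipoproteins, was at 9.51, 7.90 and 8.86 in LD cells, at 5.50, 5.56 and 6.50 in MaSC organoids, and at 5.79, 5.58 and 8.18 in yMaSC organoids, and fell by 2.90 and 2.24 (adjusted p = 0.01 and 0.033), organoid C from yMaSCs lying within the LD range. The second call was lost without LD A, LD C or yMaSC organoid A or B (adjusted p up to 0.116). Higher by over 2 log2 were Acsl4, which activates arachidonic acid, at 2.18 and 2.25, and Abca1, the cholesterol exporter, at 2.19 and 2.12. Of the 7 genes of uptake, binding and droplets, 3 were lower and 1 higher, Plin2, which coats lipid droplets, by 1.23 and 1.18 log2 (adjusted p = 0.0225 and 0.0277) and by 0.74 and 0.69 without LD B. Its first call was lost without MaSC organoid A or B and its second without any 1 yMaSC organoid (adjusted p up to 0.0839). Xdh, also of milk fat secretion, had 0.51 and 0.67 (adjusted p = 0.231 and 0.125).

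By role, 4 of 6 genes that process SREBP or belong to the LXR and carbohydrate-responsive factors were higher, among them both proteases that cut SREBP (Mbtps1 by 0.74 and 0.60, or 0.53 and 0.39 without LD B, Mbtps2 by 0.54 and 0.57) and Nr1h3, which encodes LXRα (by 1.12 and 1.11). In yMaSC organoids Mbtps1 was not called without organoid A or B (adjusted p up to 0.0763), nor Nr1h3 without organoid B (adjusted p = 0.0511). Scap, the escort of SREBP, had 0.03 and -0.02. Msmo1, a methyl oxidase of the sterol ring, had -0.82 and -0.78 (adjusted p = 0.0533 and 0.0678). Of 6 genes of fatty acid oxidation, Cpt2, Acadm and Acadl were higher by 1.05 to 1.26 log2, while Cpt1a, which admits long chains to the mitochondrion, was lower by 1.40 and 1.58. The letter set 6 of the 28 apart in the F test, beside 5.52% of all genes. The sterol exporter Abcg1 was lower in C than in A by 1.88 log2 (adjusted p = 0.00485), at 8.63 and 8.37 against 10.27 to 10.47, and Nr1h3 by 0.77 and Acadl by 0.54, while Fabp5, Acsl3 and Btn1a1 were higher by 2.35, 0.72 and 1.02. These 6 were chosen after their values were seen.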

How the data were processed

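Total RNA of 9 samples was hybridised as biotinylated cRNA to Affymetrix mouse arrays, and the authors deposited log2 intensities made by RMA (version not given in sources used here). RMA equalises the distribution of the arrays, so a change shared by most probe sets would be removed. Of 45101 probe sets, 34958 name 1 gene, 932 several and 9211 none, and 34754 matched RefSeq. The number of arrays, 3 per group, limits the precision. Each gene was fitted over all 9 arrays with limma 3.58.1 (R 4.3.3), with Benjamini-Hochberg adjustment over 18194 genes, no letter in the model and 95% intervals. An F test of the letter used the organoids alone. The letters were taken as pairs for organoids only: same-letter arrays correlated at r = 0.607, 0.611 and 0.649 (deviations from group means, across genes). Arrays are labelled biological replicates, with no animal named.

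Genes described in full passed the test with a difference of 1 log2 or more, or were among the 5 with the lowest p for the letter, and other lipid genes had 2 log2 or more. The members and lists were chosen with earlier results of these data known. Alternatives were the letter as a block, other probe set rules, scalings, a filter, priors and weights, and leaving out arrays. Leaving out both organoids C, and leaving out arrays for the other lipid genes, was chosen after seeing the data. The scripts were tested on simulated data.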

Additional observations from a re-analysis of the deposited data

How the results depend on the processing

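The alternatives were followed for genes called against LD cells in either kind of organoid, and for genes called for the letter. Their differences kept direction and side of the threshold in 1017 cases, lost a call in 145, gained one in 14 and reversed in 0. The rest of the 45 genes were not followed 1 by 1, so these cases do not cover them. The branch counts and medians moved more, and the cause was not tested. Of fatty acid genes lower in organoids from MaSCs, 2 were called with the compared groups alone and 2 to 4 when 1 array was left out, and in organoids from yMaSCs 2 to 4. Sterol genes higher numbered 3 with cyclic loess and 2 with quantile normalization in organoids from MaSCs, and 2, 2 and, with a common median, 3 in organoids from yMaSCs. Sterol genes lower in organoids from MaSCs numbered 2 with the replicate letter as a block, 0 on the mean of all probe sets, 3 with cyclic loess, 3 with quantile normalization, 5 with a common median, 3 with array weights, 4 without both organoids C, 0 with the compared groups alone and 0 to 4 when 1 array was left out, 4 being without organoid C from MaSCs. In organoids from yMaSCs they numbered 0 on the mean of all probe sets, 6 with a common median and 0 to 2 when 1 array was left out. The block changed no other branch count by over 1.5 times.

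The fatty acid median in organoids from MaSCs was 0.94 log2 among genes above the median level, 0.49 with cyclic loess, 0.50 with a common median, 0.53 without both organoids C and 0.53 to 0.82 when 1 array was left out. In organoids from yMaSCs it was 0.96, 0.59, 0.48, 0.61 and 0.57 to 0.79. The sterol median in organoids from MaSCs reversed to -0.0193 with cyclic loess, to -0.0483 with a common median and to -0.0492 without both organoids C or organoid C from MaSCs alone, with 0.31 at most, and in organoids from yMaSCs it was 0.0545 with cyclic loess and reversed to -0.0117 with a common median. The genes called for the letter numbered 10 among genes above the median level, 10 with a trended and robust prior, and 0 when 1 organoid was left out, with 1 residual degree of freedom.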
